A study of Mus musculus with 16 samples.

Results

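The 36 genes described here are listed erythroid, megakaryocyte and platelet genes, 22 of the red cell lineage and 14 of the platelet lineage, measured among 55291 genes in bone marrow Lin-cKit+Sca-1+ (LSK) cells of C57BL/6 mice. They were taken by name from the deposited count table and not by a cut on their values, but earlier results of these data were known. Of the 36, 35 had enough counts to be tested, among 22749 genes in all. LSK cells are the fraction of marrow that holds stem cells and multipotent progenitors, and they were enriched with beads from individual mice. The 4 groups were the double mutants carrying Asxl1Y588XTg and Srsf2P95H/+ together (DM), Asxl1Y588XTg alone (Asxl1Tg), Srsf2P95H/+ alone (Srsf2P95H) and wild type (WT), with 4 mice each. Asxl1Y588XTg is a transgene for a truncated form of the chromatin regulator Asxl1, and Srsf2P95H/+ is a mutation in 1 copy of a splicing factor gene. The labels give no promoter for the transgene, no driver for the Srsf2 allele, and no age, sex or batch. The series' own description gives 3 DM mice, whereas the sample labels and the count table hold 4, and all 4 were used.

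Red cells and platelets come from closely related progenitors. GATA1, with its partner FOG1 (the product of Zfpm1), acts in both lineages, KLF1 is a transcription factor of the red cell lineage, and NFE2 and GFI1B act in megakaryocytes and red cell precursors. Erythroid cells then make globin, haem and the proteins of the red cell membrane, while megakaryocytes make the adhesion receptors and granules that platelets carry. Stem cells lie upstream of these steps, and some of them already express megakaryocyte genes such as Itga2b.

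Promoter sequences from RefSeq were available for 28 of the 36 genes (GRCm38.p6, 250 bases before to 50 bases after the start). A GATA word was AGATAA or TGATAA, or the same with G as the last base, on either strand. It was present in 11 of 17 erythroid promoters (64.7%) and in 4 of 11 platelet promoters (36.4%), against 30.2% of all 27025 promoters. The CACC word CCNCNCCC, the kind of site KLF1 binds, was present on either strand in 13 of 17 erythroid and 6 of 11 platelet promoters, against 49.1% of all promoters. The ETS word GGAAGT, of the family of FLI1, was present on either strand in 3 of 17 erythroid and 6 of 11 platelet promoters, against 24.1% of all promoters. The words of the 3 kinds were searched separately and a promoter can hold several. The sequences of 8 members are shown 5′ to 3′ on the strand of the gene, ending at the base before the start, with GATA words (or their reverse complements) in capitals. Klf1, Ermap, Rhd and Epor are shown as erythroid genes that varied together between mice, Hba-a1 and Hbb-bs as globins that varied in another way, and Itga2b and Selp as platelet members. This choice was made after their values were seen, and the shown genes do not represent their sets. A GATA word was absent from 6 of 17 erythroid promoters, among them that of Aqp1, whose pattern between mice resembled that of Klf1. It was present in the platelet promoters of Pf4, Gp1ba, Gp1bb and Gp5.
Klf1: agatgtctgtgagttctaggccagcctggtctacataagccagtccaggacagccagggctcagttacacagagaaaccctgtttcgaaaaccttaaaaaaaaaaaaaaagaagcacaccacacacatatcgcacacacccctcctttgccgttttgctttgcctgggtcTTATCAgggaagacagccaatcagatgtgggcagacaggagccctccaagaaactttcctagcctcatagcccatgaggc
Ermap: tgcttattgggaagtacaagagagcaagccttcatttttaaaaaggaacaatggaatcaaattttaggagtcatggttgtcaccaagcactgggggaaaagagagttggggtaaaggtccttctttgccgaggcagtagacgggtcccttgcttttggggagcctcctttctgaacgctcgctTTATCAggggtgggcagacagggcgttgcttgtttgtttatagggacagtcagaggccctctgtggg
Rhd: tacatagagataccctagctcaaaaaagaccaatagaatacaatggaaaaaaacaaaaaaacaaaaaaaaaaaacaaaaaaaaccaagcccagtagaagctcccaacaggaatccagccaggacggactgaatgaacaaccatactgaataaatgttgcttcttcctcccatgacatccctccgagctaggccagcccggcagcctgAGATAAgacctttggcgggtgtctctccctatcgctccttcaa
Epor: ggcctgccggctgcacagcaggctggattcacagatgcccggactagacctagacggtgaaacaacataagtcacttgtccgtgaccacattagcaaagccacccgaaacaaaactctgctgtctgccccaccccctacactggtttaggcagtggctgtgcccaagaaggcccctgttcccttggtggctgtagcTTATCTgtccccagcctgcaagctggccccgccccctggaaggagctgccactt
Hba-a1: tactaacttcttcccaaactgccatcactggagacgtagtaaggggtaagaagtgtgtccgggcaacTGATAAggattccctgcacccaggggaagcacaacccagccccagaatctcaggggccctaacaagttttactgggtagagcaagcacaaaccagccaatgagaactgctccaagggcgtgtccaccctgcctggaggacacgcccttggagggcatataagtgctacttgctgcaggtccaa
Hbb-bs: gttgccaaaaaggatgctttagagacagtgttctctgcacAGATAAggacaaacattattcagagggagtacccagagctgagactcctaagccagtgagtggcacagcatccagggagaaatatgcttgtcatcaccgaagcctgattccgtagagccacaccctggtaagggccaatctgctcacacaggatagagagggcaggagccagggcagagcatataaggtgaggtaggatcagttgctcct
Itga2b: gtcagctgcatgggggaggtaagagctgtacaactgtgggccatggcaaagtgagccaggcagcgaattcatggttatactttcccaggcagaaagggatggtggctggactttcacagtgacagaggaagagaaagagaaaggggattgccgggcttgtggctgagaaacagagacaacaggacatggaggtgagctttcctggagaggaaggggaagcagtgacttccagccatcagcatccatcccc
Selp: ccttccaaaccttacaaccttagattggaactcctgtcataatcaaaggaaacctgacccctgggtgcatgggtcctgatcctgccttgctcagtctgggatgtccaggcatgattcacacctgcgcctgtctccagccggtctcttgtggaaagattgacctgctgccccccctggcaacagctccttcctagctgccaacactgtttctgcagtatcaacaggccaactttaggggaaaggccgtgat
The windows lie at chr8:84901732-84901981 (plus strand), chr4:119189996-119190245 (minus), chr4:134864286-134864535 (plus), chr9:21963577-21963826 (minus), chr11:32283422-32283671 (plus), chr7:103827929-103828178 (minus), chr11:102469884-102470133 (minus) and chr1:164115014-164115263 (plus). The GATA word began 80 bases before the start in Klf1, 67 in Ermap, 43 in Rhd and 54 in Epor. It began 183 bases before the start in Hba-a1 and 210 in Hbb-bs. No GATA word was in the Itga2b or Selp window. A match is a stretch of letters and not a measured binding site. Whether the position of a GATA word goes with how a gene varied between mice was not tested.

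Total counts per library were 82991487 to 127596225. Levels are given in CPM, the count divided by the TMM-scaled library size in megacounts, and values in several mice are given in the order of mice 1 to 4. The LSK markers Kit (699 to 1211 CPM) and Ly6a, which encodes Sca-1, (23.2 to 54.3 CPM) were present in every library. Asxl1 (206 to 236 CPM) and Srsf2 (173 to 294 CPM) passed the test in no comparison. Neither gene's total checks the labels, since a point mutation and a transgene need not change the count of the mouse gene. In bulk RNA, fewer cells of a type and less RNA per cell cannot be told apart. WT mouse 4 stood apart over the whole table and was the highest of the 16 libraries for 19.6% of all genes tested. Its summed B cell markers reached 131.6 CPM, against 25.2 to 47.6 CPM in the other 15 libraries, and its summed eosinophil markers 1580 CPM, against 42.8 to 486 CPM, with all 8 and all 9 markers detected in it. Xist was 1566 CPM or more in DM 1, Asxl1Tg 3, Srsf2P95H 2, Srsf2P95H 3 and WT 1 and was at most 2.11 CPM elsewhere, and this RNA of the inactive X chromosome marks female cells. The effect of these differences on the lineage genes was not tested except where a fit is named.

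Levels between genes are compared per kilobase of exon (GENCODE M21), as mean CPM per kb ± SD over all 16 libraries (n = 16). Car2 was the most abundant member at 140 ± 36.2 CPM per kb, followed by Nfe2 at 79.9 ± 6.13 and Zfpm1 at 51.8 ± 7.56 CPM per kb. The carbonic anhydrase gene Car1 came next at 37.7 ± 50.1 CPM per kb, a spread larger than its mean. Pf4, F2r, Itga2b and Selp followed at 27.1 ± 19.4, 24.1 ± 6.08, 23.7 ± 4.51 and 21.3 ± 10.4 CPM per kb, and these neighbours did not differ beyond their spread. Aqp1, Tfrc, Gfi1b and Itgb3 stood between 11.1 and 19.8 CPM per kb. The lowest erythroid members tested were Tmod1 at 0.329 ± 0.125, Slc4a1, the anion exchanger of the red cell membrane, at 0.509 ± 0.345, Sptb at 0.775 ± 0.508, Ank1 at 0.92 ± 0.9 and Alas2, the haem synthesis enzyme of red cells, at 1.07 ± 0.42 CPM per kb. Tubb1, the beta tubulin of platelets, was at 0.306 ± 0.123 CPM per kb. Icam4, a red cell adhesion protein, had 0 counts in all 16 libraries, which allows up to 0.036 CPM in the shallowest of them. All of its exon sequence overlaps the antisense gene Gm47079, and the part of that overlap in the count of 0 was not tested. Gp1bb held 0 to 28 counts per library, and 92.9% of its exon sequence is shared with Sept5 and Gm49601 on the same strand, so its level is uncertain. The exons of Tmod1 (32.6%), Alas2 (15.5%), Selp (14.1%), Ank1 (6.37%) and Thbs1 (3.43%) partly overlap genes on the opposite strand, and the strand setting of the counting is not given in the sources used here.

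**Figure D1:**
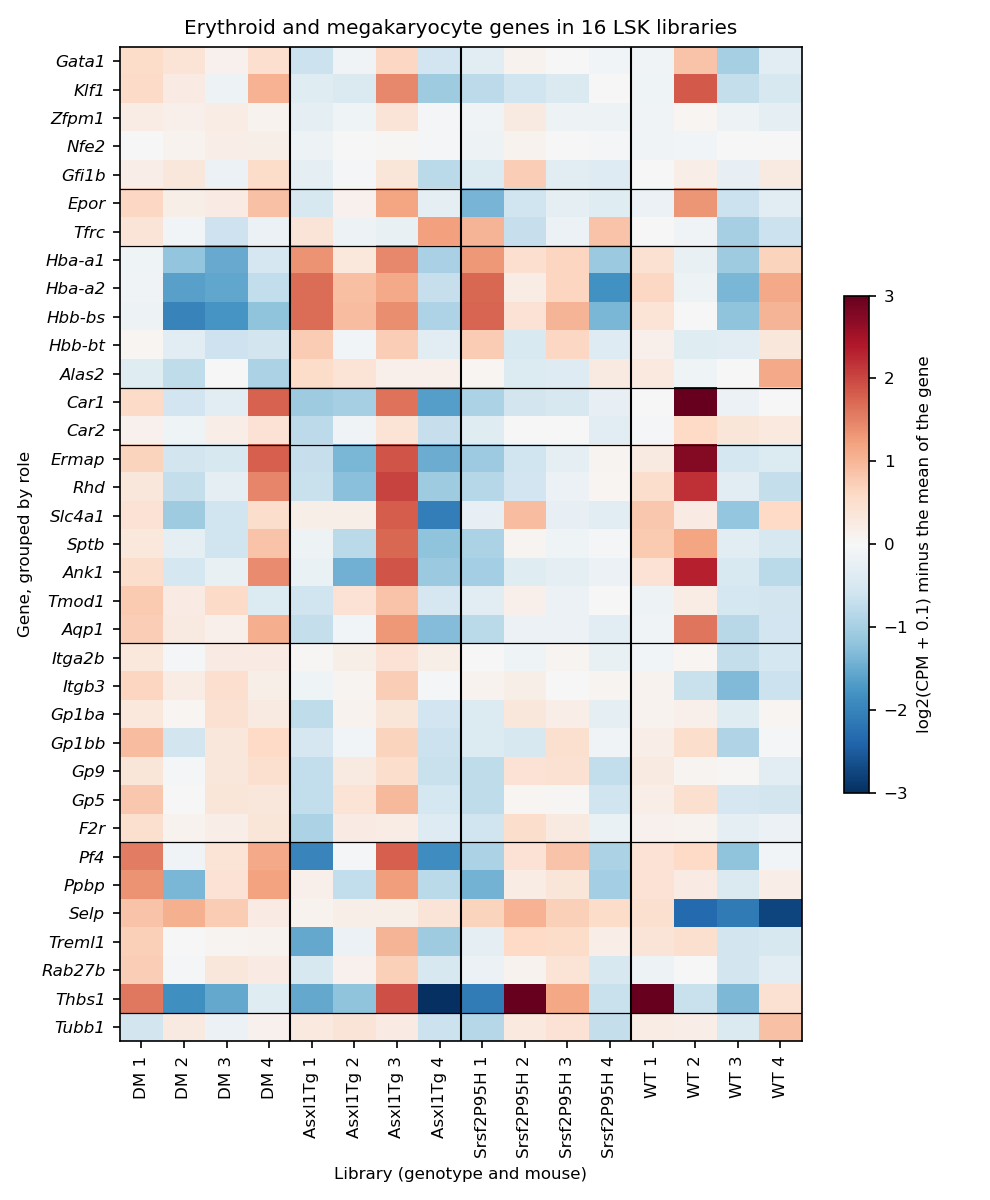
Level of each of the 35 tested members in each of the 16 mice, as log2(CPM + 0.1) minus the gene's mean over all mice, with genes in rows grouped by role and mice in columns by genotype (DM, Asxl1Tg, Srsf2P95H, WT). WT 2 and Asxl1Tg 3 are high across the Klf1, Car1, Ermap and Ank1 rows. In the Hbb-bs and Hba-a1 rows Asxl1Tg 3 is again high, with Asxl1Tg 1 and Srsf2P95H 1, but WT 2 is not. Selp is low in WT mice 2, 3 and 4.

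The erythroid genes varied widely between mice, including mice of the same genotype. The coefficient of variation over the 16 mice had a median of 64.2% in the 21 erythroid members tested and 39.5% in the 14 platelet members, against 25.4% over all genes tested. WT mouse 2 was the highest of all 16 mice in 9 of the 21 erythroid members (42.9%), whereas it was highest for 4.13% of all genes. Asxl1Tg mouse 3 was the highest of its group in 16 of the 21 erythroid members (76.2%) and in 11 of the 14 platelet members (78.6%), against 25.1% of all genes. DM mouse 4 was the highest of its group in 11 of 21 erythroid members, against 22.6% of all genes. DM mouse 1 was the highest of its group in 10 of 14 platelet members, against 25.8% of all genes. Srsf2P95H mice 2 and 3 each led their group in 7 of 14 platelet members, against 30.3% and 23.2% of all genes. WT mice 1 and 2 led in 6 and 7 of 14, against 25.3% and 18.4%. Of these mice, DM 1, Asxl1Tg 3, Srsf2P95H 2, Srsf2P95H 3 and WT 1 are those with high Xist named above. The part of Xist level in these ranks was not tested. The genes named below for a mouse pattern, such as Klf1, Car1 and Ermap, were singled out after their values were seen, and no test is given for them.

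Among the erythroid transcription factors, Nfe2 was the most abundant and the steadiest. It had 234, 258, 274 and 271 CPM in DM mice, 213, 238, 245 and 229.7 in Asxl1Tg mice, 214, 257, 239 and 229.6 in Srsf2P95H mice, against 223, 224, 236 and 237 in WT mice. The groups overlapped, and the coefficient of variation was 7.66%. Zfpm1 averaged 203 ± 8.16 CPM in DM, 180.5 ± 38.8 in Asxl1Tg, 177 ± 26.1 in Srsf2P95H and 166 ± 16.4 in WT mice (SD, n = 4 each). Every DM mouse lay above every WT mouse for Zfpm1, but the difference did not pass the test (log2 fold change 0.29, SE 0.125, edgeR adjusted p = 0.129). Gata1 averaged 24.7 ± 3.06, 17.5 ± 7.79, 17.6 ± 2.23 and 18.7 ± 10.5 CPM in DM, Asxl1Tg, Srsf2P95H and WT mice (SD, n = 4 each), with the widest range inside the WT group, at 9.19 to 33.6 CPM. Gfi1b, a repressor needed in both lineages, lay at 14.8 to 43.98 CPM, highest in Srsf2P95H 2.

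Klf1 showed the mouse pattern that several other erythroid genes shared. It had 10.6, 8.46, 6.38 and 14.7 CPM in DM mice, 5.55, 5.24, 19.6 and 3.37 in Asxl1Tg mice, 4.11, 4.703, 5.26 and 7.13 in Srsf2P95H mice, against 6.56, 25.7, 4.27 and 5.07 in WT mice. Asxl1Tg 3 and WT 2 stood far above the other mice of their groups, while the DM and Srsf2P95H mice were closer together. The erythropoietin receptor gene Epor had 7.15, 5.19, 5.46 and 8.58 CPM in DM mice, 3.26, 5.07, 10.6 and 3.73 in Asxl1Tg mice, 1.7, 2.99, 3.81 and 3.58 in Srsf2P95H mice, against 4.099, 11.7, 2.91 and 3.64 in WT mice. Its highest mice were again WT 2 and Asxl1Tg 3. All 4 DM mice were above all 4 Srsf2P95H mice for Epor, a pattern that 4.28% of all genes showed in either direction. The difference did not pass the test (log2 fold change 1.13, SE 0.447, edgeR adjusted p = 0.62).

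Tfrc, the transferrin receptor gene that brings iron into dividing cells, did not follow Klf1. It had 128, 92.6, 64.6 and 87.8 CPM in DM mice, 129, 88.4, 84.8 and 231 in Asxl1Tg mice, 199.9, 60.8, 87.4 and 177 in Srsf2P95H mice, against 99.9, 92.2, 49.2 and 62.7 in WT mice. Asxl1Tg 4, Srsf2P95H 1 and Srsf2P95H 4 were the high mice, and the groups overlapped.

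Of the carbonic anhydrases, which hydrate carbon dioxide, Car2 had 356, 300.5, 377 and 440.0 CPM in DM mice, 190.0, 303, 435 and 201 in Asxl1Tg mice, 253, 324, 329 and 263 in Srsf2P95H mice, against 315, 497, 423 and 402 in WT mice. The WT group had the highest mean and Asxl1Tg 1 and 4 the lowest values, and the groups overlapped. Car1 had 44.7, 20.3, 23.7 and 103 CPM in DM mice, 14.4, 15.1, 92.9 and 9.46 in Asxl1Tg mice, 15.5, 20.5, 21.7 and 25.6 in Srsf2P95H mice, against 30.1, 259, 26.5 and 30.4 in WT mice. WT 2 alone carried most of the WT mean, and every Srsf2P95H mouse was below every WT mouse. That full separation was shown by 13.7% of all genes between Srsf2P95H and WT, and Car1 did not pass the test there.

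Among the red cell membrane and skeleton genes, the water channel gene Aqp1 was the most abundant. It had 73.98, 53.1, 49.1 and 93.7 CPM in DM mice, 26.6, 41.4, 108 and 17.7 in Asxl1Tg mice, 24.98, 39.2, 38.9 and 34.6 in Srsf2P95H mice, against 41.2, 133, 24.7 and 29.7 in WT mice. WT 2 and Asxl1Tg 3 were highest, and every DM mouse was above every Srsf2P95H mouse. Ermap, which encodes a red cell surface protein, had 22.5, 9.65, 10.1 and 49.01 CPM in DM mice, 8.66, 5.35, 52.8 and 4.96 in Asxl1Tg mice, 6.58, 9.27, 11.7 and 14.9 in Srsf2P95H mice, against 17.04, 95.6, 9.78 and 10.6 in WT mice. The same mice stood out, with DM 4 next to them. Rhd (a blood group protein), Ank1 (ankyrin of the red cell skeleton) and Sptb (beta spectrin) also had WT 2 and Asxl1Tg 3 as their highest mice, at 11.9 CPM in Asxl1Tg 3 and 13.3 CPM in WT 2 for Rhd, 33.98 and 46.5 CPM for Ank1 and 26.6 and 18.4 CPM for Sptb. Slc4a1 was highest in Asxl1Tg 3 at 7.52 CPM and otherwise at or below 4.001 CPM. Tmod1, which caps actin filaments of the membrane skeleton, stayed at 0.775 to 2.28 CPM.

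**Figure D2:**
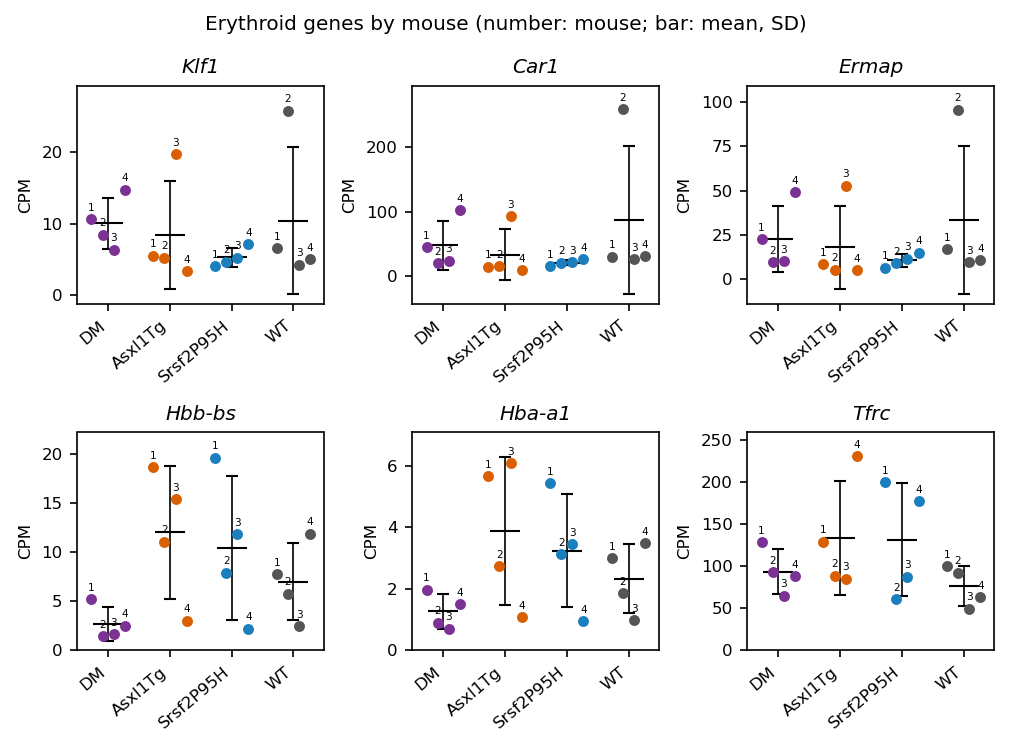
CPM of 6 erythroid genes in each mouse, by genotype (points numbered by mouse, bars at the mean with the SD, n = 4 each). In the Klf1, Car1 and Ermap panels Asxl1Tg 3 and WT 2 stand above the other mice of their groups (92.9 and 258.8 CPM for Car1), whereas Hbb-bs and Hba-a1 are lowest in DM mice 2, 3 and 4, Asxl1Tg 4, Srsf2P95H 4 and WT 3, and Tfrc is highest in Asxl1Tg 4.

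The globin genes varied between mice in a different way. Hbb-bs, the more abundant of the adult beta globin genes, had 5.17, 1.38, 1.63 and 2.46 CPM in DM mice, 18.6, 11.1, 15.4 and 2.99 in Asxl1Tg mice, 19.6, 7.89, 11.8 and 2.17 in Srsf2P95H mice, against 7.75, 5.74, 2.44 and 11.9 in WT mice. Its high mice were Srsf2P95H 1, Asxl1Tg 1 and Asxl1Tg 3, and WT 2, the highest mouse for Klf1, was not among them. Hba-a1, an adult alpha globin gene, had 1.96, 0.893, 0.692 and 1.497 CPM in DM mice, 5.65, 2.73, 6.08 and 1.06 in Asxl1Tg mice, 5.43, 3.13, 3.45 and 0.939 in Srsf2P95H mice, against 2.99, 1.85, 0.971 and 3.48 in WT mice. Here Asxl1Tg 3, Asxl1Tg 1 and Srsf2P95H 1 were highest and DM 3 lowest. The 4 adult globin genes together made up 0.000465% to 0.00326% of all counts in a library, a very small share. The coding sequences of Hba-a1 and Hba-a2 differ at 1 of 429 bases and those of Hbb-bs and Hbb-bt at 1 of 444. Many reads may therefore match both copies. How the authors' counting treated such reads was not tested, so the globin levels and their share of counts are uncertain. Hba-a2 stayed at 0.155 to 2.89 CPM and Hbb-bt at 2.04 to 5.53 CPM. Alas2 had 1.85, 1.38, 2.37 and 1.21 CPM in DM mice, 3.59, 3.22, 2.68 and 2.704 in Asxl1Tg mice, 2.51, 1.79, 1.82 and 2.93 in Srsf2P95H mice, against 2.96, 2.18, 2.38 and 5.46 in WT mice. WT 4 was the highest mouse for Alas2, and all 4 DM mice were below all 4 Asxl1Tg mice.

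Of the platelet adhesion receptors, the proteins of Itga2b and Itgb3 together form the fibrinogen receptor of platelets. Itga2b had 159, 123, 149.9 and 150.3 CPM in DM mice, 129.6, 143, 171 and 143 in Asxl1Tg mice, 128, 115, 135 and 108 in Srsf2P95H mice, against 119.6, 132, 77.2 and 88.0 in WT mice. All DM and Asxl1Tg mice were above WT mice 1, 3 and 4, and both groups overlapped the WT group through WT 2. Itgb3 had 97.1, 72.4, 88.5 and 70.2 CPM in DM mice, 56.5, 66.1, 105 and 60.96 in Asxl1Tg mice, 66.6, 70.8, 61.6 and 65.6 in Srsf2P95H mice, against 67.4, 38.9, 24.6 and 39.5 in WT mice. All 4 DM mice were above all 4 WT mice, and Asxl1Tg 3 was the highest of the 16. F2r, the thrombin receptor PAR1, lay at 40.04 to 112 CPM and was lowest in Asxl1Tg 1. The genes of the von Willebrand factor receptor, Gp1ba, Gp9 and Gp5, lay at 5.85 to 13.5, 4.24 to 10.5 and 7.09 to 23.8 CPM.

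Selp encodes the granule adhesion protein P-selectin. Per kilobase Pf4 stood above it, at 27.1 ± 19.4 against 21.3 ± 10.4 CPM per kb, a difference within their spread. Selp had the highest mean CPM of the genes of granule content and release. It had 136, 156, 127 and 88.9 CPM in DM mice, 79.9, 84.1, 84.3 and 97.1 in Asxl1Tg mice, 118, 154, 122 and 109 in Srsf2P95H mice, against 104, 14.7, 16.98 and 11.1 in WT mice. WT mice 2, 3 and 4 were at 11.1 to 17.0 CPM, and WT 1 was at the level of the mutants. WT 1 was also the WT mouse with Xist at 1566 CPM or more. The mutant mice with Xist at most 2.11 CPM held 79.95 to 156.3 CPM of Selp. Pf4, platelet factor 4, had 43.5, 13.97, 20.03 and 33.05 CPM in DM mice, 3.75, 14.5, 52.4 and 4.08 in Asxl1Tg mice, 7.81, 20.3, 27.5 and 7.74 in Srsf2P95H mice, against 20.4, 22.8, 6.47 and 14.3 in WT mice. Its highest mice were Asxl1Tg 3 and DM 1. Thbs1, the gene of thrombospondin, which platelets store in granules and other cells also secrete, had 16.3, 1.43, 1.805 and 4.203 CPM in DM mice, 1.79, 2.28, 20.9 and 0.321 in Asxl1Tg mice, 1.18, 208, 12.1 and 3.36 in Srsf2P95H mice, against 136, 3.35, 2.06 and 7.404 in WT mice. Only Srsf2P95H 2 and WT 1 exceeded 100 CPM. Srsf2P95H 2 had the highest summed immediate-early genes of the 16 libraries, at 11978 CPM, and WT 1 had 4836 CPM. WT 3, WT 2 and Asxl1Tg 2 had sums of 11826, 8597 and 8451 CPM, with Thbs1 at 2.06, 3.35 and 2.28 CPM. All 12 immediate-early genes were detected. Sums ran over 1556 to 2861 CPM in DM and 2100 to 8451 in Asxl1Tg mice. They ran over 2376 to 11978 in Srsf2P95H and 689.6 to 11826 in WT mice. The mice with Xist at 1566 CPM or more (DM 1, Asxl1Tg 3, Srsf2P95H 2, Srsf2P95H 3 and WT 1) held 12.1 to 208 CPM of Thbs1. Every other mouse held at most 7.404 CPM. The part of immediate-early genes or of Xist level in the Thbs1 values was not tested. Rab27b, a GTPase of granule release, lay at 11.1 to 27.6 CPM, Treml1, a receptor of platelet granules, at 1.02 to 6.43 CPM and the chemokine gene Ppbp at 0.20 to 1.95 CPM. Tubb1 had 0.243, 0.511, 0.342 and 0.452 CPM in DM mice, 0.513, 0.558, 0.498 and 0.224 in Asxl1Tg mice, 0.18, 0.517, 0.577 and 0.206 in Srsf2P95H mice, against 0.485, 0.48, 0.274 and 0.824 in WT mice. WT 4 was its highest mouse, and every group overlapped every other.

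**Figure D3:**
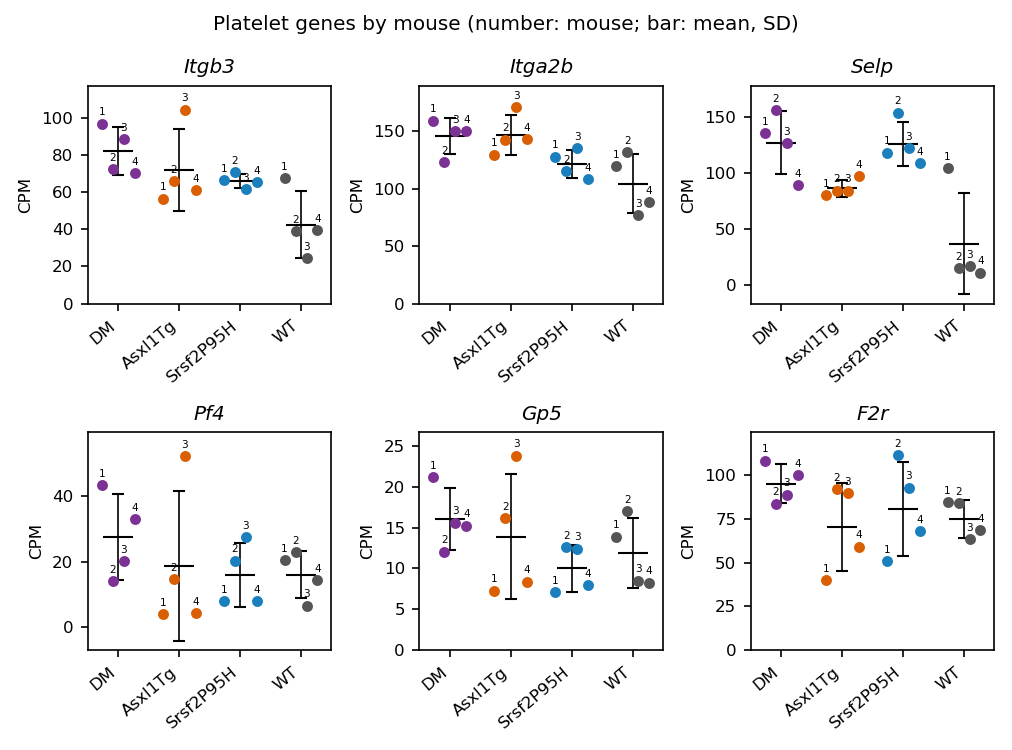
CPM of 6 platelet genes in each mouse, by genotype (points numbered by mouse, bars at the mean with the SD, n = 4 each). Selp is at 11.1 to 17.0 CPM in WT mice 2, 3 and 4 and at 79.95 CPM or more in every other mouse, and Itgb3 is at 70.2 to 97.1 CPM in DM mice and at 24.6 to 67.4 CPM in WT mice.

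DM against WT was the comparison in which any of the 35 members passed the test. The integrin genes Itgb3 and Itga2b rose in DM mice, and no member fell. Itgb3 averaged 82.03 ± 12.9 CPM in DM and 42.6 ± 17.9 CPM in WT mice (SD, n = 4 each), a log2 fold change of 0.95 (SE 0.255, edgeR quasi-likelihood adjusted p = 0.0365). Itga2b averaged 146 ± 15.7 CPM in DM and 104 ± 25.7 CPM in WT mice (SD, n = 4 each), a log2 fold change of 0.48 (SE 0.143, edgeR adjusted p = 0.0455). Summed neutrophil markers ran over 2833 to 5469.8 CPM in DM, 1585 to 4134 in Asxl1Tg, 3372 to 4896 in Srsf2P95H and 860.2 to 3369 in WT mice. All 9 were detected in every library, 0 of 9 passed the test in DM against WT, and their part in the integrin values was not tested. The 2 calls among 35 members (5.71%) compare with 9.39% of all genes called in the same fit (4.65% higher and 4.73% lower), so the share of lineage genes called was no higher than the background. Itgb3 and Zfpm1 were the members with no overlap between groups, both higher in DM, against 18.6% of all genes in either direction. The smallest p among the erythroid members belonged to Alas2, which averaged 1.702 ± 0.522 CPM in DM and 3.24 ± 1.51 CPM in WT mice (SD, n = 4 each), with a log2 fold change of -0.93 (SE 0.29, edgeR adjusted p = 0.0522). At an unadjusted p under 0.05 there were 7 members, against 30.6% of all genes.

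By role, all 7 platelet adhesion receptors had a positive log2 fold change in DM against WT, of which 2 passed the test. Over the 14 platelet members 12 were above 0 and the median was 0.46. Over the 21 erythroid members 8 were above 0 and the median was -0.29. The median over all genes was -0.02. WT 2 was the highest of all 16 mice in 9 of these 21 erythroid members. The part of WT 2 in their directions and median was not tested. All 5 globin and haem genes were below 0, and none passed the test. They include pairs of near-identical globin copies and are not independent. The members' log2 fold changes were also less precise than those of other genes, with a median SE of 0.44 against 0.235 over all genes. DESeq2 called Alas2, Itga2b and Itgb3, against 17.2% of all genes. The call of Itgb3 was lost on leaving out DM 1, 2, 3 or 4 or WT 2, 3 or 4 (adjusted p 0.055 to 0.105), and the call of Itga2b on leaving out DM 1, 2, 3 or 4, Asxl1Tg 4, Srsf2P95H 1 or 3, or WT 3 or 4 (0.0509 to 0.127). Alas2 passed without DM 3, the DM mouse in which it was highest (edgeR adjusted p = 0.0321). It also passed without WT 2, the WT mouse in which it was lowest (0.0483). Either removal widens the difference by construction, so these p values are no test of an Alas2 effect.

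Selp had a larger change with a wider error. In DM against WT its log2 fold change was 1.79 (SE 0.592, edgeR adjusted p = 0.0716), in Srsf2P95H against WT it was 1.78 (SE 0.592, adjusted p = 0.0975), and in Asxl1Tg against WT it was 1.23 (SE 0.584, adjusted p = 0.246). DESeq2 gave no adjusted p for Selp. These 3 comparisons share the same WT mice. Without WT 1 the log2 fold changes were 3.16 in DM (edgeR adjusted p = 6.05e-07), 3.14 in Srsf2P95H (1.91e-06) and 2.60 in Asxl1Tg (5.32e-06), all against the remaining 3 WT mice. Leaving out any other single library gave no call for Selp against WT. WT 1 was the WT mouse with the highest Selp, so its removal widens the difference by construction. These p values are therefore no test of a Selp effect. With a term for Xist level, added after the data were seen, Selp reached 2.18 in DM against WT (edgeR adjusted p = 0.0281).

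In Asxl1Tg against WT no member passed edgeR's test, against 1.88% of all genes. At an unadjusted p under 0.05 there were 3 members, against 21.5% of all genes, and DESeq2 called Itga2b and Itgb3, against 8.23%. Itga2b averaged 147 ± 17.3 CPM in Asxl1Tg and 104 ± 25.7 CPM in WT mice (SD, n = 4 each), a log2 fold change of 0.49 (SE 0.144, edgeR adjusted p = 0.0776). Itgb3 averaged 72.05 ± 22.05 CPM in Asxl1Tg and 42.6 ± 17.9 CPM in WT mice (SD, n = 4 each), a log2 fold change of 0.76 (SE 0.255, edgeR adjusted p = 0.113). Car2 averaged 282 ± 114 CPM in Asxl1Tg and 409 ± 74.9 CPM in WT mice (SD, n = 4 each), a log2 fold change of -0.54 (SE 0.226, edgeR adjusted p = 0.189). No member separated the groups without overlap, against 8.98% of all genes. The member median was -0.08, against -0.04 over all genes. Itgb3 passed without WT 1, the WT mouse in which it was highest (edgeR adjusted p = 0.0131). Car2 passed without Asxl1Tg 3, the mouse in which it was highest in that group (-0.82, adjusted p = 0.0458).

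In Srsf2P95H against WT no member passed edgeR's test either, against 0.506% of all genes. There were 3 members at an unadjusted p under 0.05, against 25.3% of all genes, and DESeq2 called Itgb3, against 11.4%. Itgb3 averaged 66.1 ± 3.78 CPM in Srsf2P95H and 42.6 ± 17.9 CPM in WT mice (SD, n = 4 each), a log2 fold change of 0.64 (SE 0.254, edgeR adjusted p = 0.141). Car2 averaged 292 ± 40.1 CPM in Srsf2P95H and 409 ± 74.9 CPM in WT mice (SD, n = 4 each), a log2 fold change of -0.49 (SE 0.226, edgeR adjusted p = 0.195). Selp was higher in every Srsf2P95H mouse than in any WT mouse and Car1 lower, against 13.7% of all genes in either direction. The member median was -0.06, against -0.05 over all genes. Without WT 1, the WT mouse in which it was highest, Itgb3 passed (edgeR adjusted p = 0.023).

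DM was then set against each single mutant, the comparisons that address what a second mutation adds. Against Asxl1Tg no member passed edgeR's test, against 1.08% of all genes, and 6 members had an unadjusted p under 0.05, against 17.8%. These 6 included all 5 globin and haem genes, all lower in DM. Hba-a1 and Hba-a2, and Hbb-bs and Hbb-bt, are pairs of near-identical copies, so these genes are not independent. Hbb-bs averaged 2.66 ± 1.74 CPM in DM and 12.01 ± 6.77 CPM in Asxl1Tg mice (SD, n = 4 each), a log2 fold change of -2.17 (SE 0.728, edgeR adjusted p = 0.146). Hba-a1 averaged 1.26 ± 0.579 CPM in DM and 3.88 ± 2.4 CPM in Asxl1Tg mice (SD, n = 4 each), a log2 fold change of -1.62 (SE 0.587, edgeR adjusted p = 0.165). For Alas2 the log2 fold change was -0.84 (SE 0.29, edgeR adjusted p = 0.143), with all 4 DM mice below all 4 Asxl1Tg mice, a separation that 11.5% of all genes showed in either direction. DESeq2 called Alas2 and Hbb-bs lower, against 5.13% of all genes. The median over the platelet members was 0.36, against 0.00 over all genes.

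Against Srsf2P95H no member passed edgeR's test, against 0.246% of all genes, and DESeq2 called none, against 1.03%. The members at an unadjusted p under 0.05 numbered 4, against 6.48% of all genes. Hbb-bs averaged 2.66 ± 1.74 CPM in DM and 10.4 ± 7.33 CPM in Srsf2P95H mice (SD, n = 4 each), a log2 fold change of -1.96 (SE 0.723, edgeR adjusted p = 0.571). Hba-a1 averaged 1.26 ± 0.579 CPM in DM and 3.24 ± 1.84 CPM in Srsf2P95H mice (SD, n = 4 each), a log2 fold change of -1.36 (SE 0.584, edgeR adjusted p = 0.701). Epor, Aqp1 and Gata1 were higher in every DM mouse than in any Srsf2P95H mouse, against 2.86% of all genes higher in this way. The median over the members was 0.31, against -0.01 over all genes.

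The interaction, the DM difference beyond the sum of both single-mutant differences on the log2 scale, passed edgeR's test for 0 of the 35 members and for 0% of all genes. At an unadjusted p under 0.05 there were 6 members, against 11.7% of all genes, and DESeq2 called no member, against 0.229%. The smallest p values belonged to Car2 (0.87, SE 0.32, edgeR adjusted p = 0.378), Hbb-bs (-2.75, SE 1.0, adjusted p = 0.378) and Hba-a1 (-2.10, SE 0.818, adjusted p = 0.382). For Car2, both single mutants had group means below WT while DM lay between them and WT. For both globins, each single mutant's mean was above WT and the DM mean below it. Without WT 1, the WT mouse with the highest Selp, 1 member passed the interaction test, Selp.

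**Figure D4:**
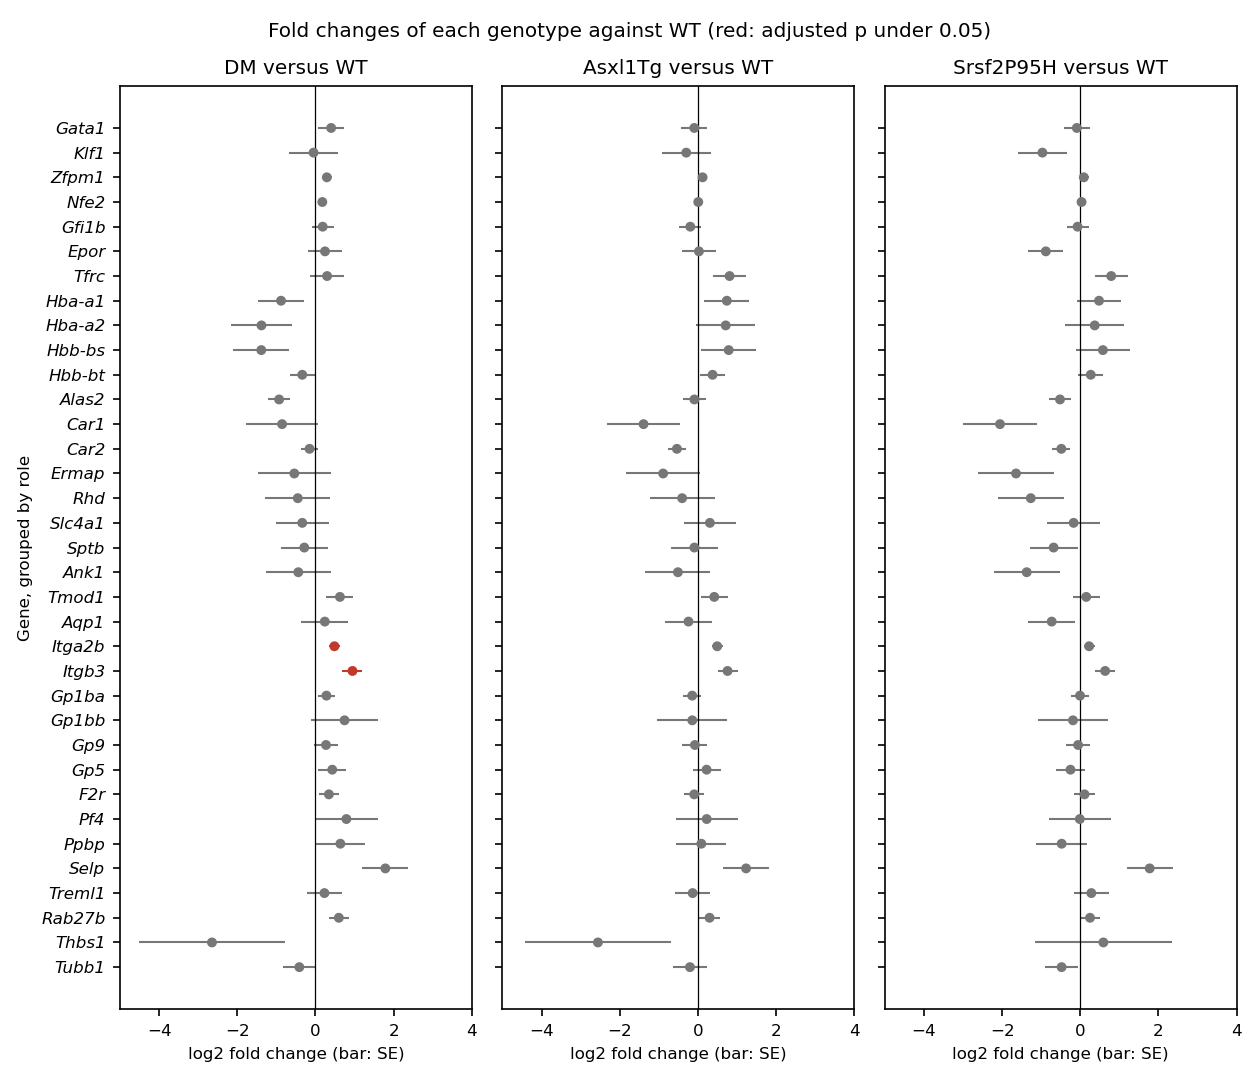
Log2 fold change of every tested member with its SE as a bar in DM, Asxl1Tg and Srsf2P95H, each against WT, with genes down the page by role. Itgb3 and Itga2b are the red points (adjusted p under 0.05) in DM against WT (0.95 and 0.48), the globins lie below 0 in DM, and the bars of Car1, Ermap, Ank1 and Thbs1 are among the longest.

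Further genes of both lineages were followed in lists of 40 each, of which 37 megakaryocyte and platelet genes and 36 erythroid genes were tested. In DM against WT, 3 of the 37 megakaryocyte and platelet genes rose and none fell, against 4.65% of all genes that rose and 4.73% that fell. The tetraspanin gene Cd9, which marks megakaryocytes and some stem cells, had 57.9, 57.2, 57.3 and 57.4 CPM in DM mice, against 43.6, 35.0, 27.2 and 32.5 in WT mice, a log2 fold change of 0.73 (SE 0.134, edgeR adjusted p = 0.0062). The integrin gene Itga6 had 283, 292, 331 and 295 CPM in DM mice, against 263, 204, 199 and 186 in WT mice (log2 fold change 0.50, SE 0.1, edgeR adjusted p = 0.0103). P2ry1, an ADP receptor of platelets, had 16.3, 11.9, 10.8 and 12.6 CPM in DM mice, against 7.63, 8.33, 5.17 and 8.85 in WT mice (log2 fold change 0.78, SE 0.202, edgeR adjusted p = 0.0271). For all 3 genes every DM mouse was above every WT mouse, a separation that 18.6% of all genes showed in either direction. The calls of Cd9 and Itga6 held in all 25 alternatives, and that of P2ry1 was lost on leaving out DM 1, 2 or 4 or WT 3 (adjusted p up to 0.0975). In Asxl1Tg against WT, 2 of the 37 fell, against 0.76% of all genes that fell, the collagen receptor gene Itga2 (log2 fold change -0.92, SE 0.20, edgeR adjusted p = 0.0292) and the transcription factor gene Mef2c (-0.45, SE 0.108, adjusted p = 0.0433). Itga2 had 6.84, 9.77, 11.5 and 7.32 CPM in Asxl1Tg mice, against 13.5, 14.9, 17.6 and 20.9 in WT mice and Mef2c had 187, 253, 225 and 187 CPM in Asxl1Tg mice, against 261, 298, 314 and 288 in WT mice. Both separated the groups without overlap, as did 8.98% of all genes in either direction. The Itga2 call was lost on leaving out Asxl1Tg 1 or 4 or WT 2, 3 or 4, and the Mef2c call on leaving out DM 1, 2, 3 or 4, Asxl1Tg 1, 3 or 4, Srsf2P95H 1, or WT 2, 3 or 4.

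Of the 36 further erythroid genes, 1 rose and 1 fell in DM against WT (5.56%), against 9.39% of all genes called, and none passed edgeR's test in any other comparison. Gclm, a subunit of the enzyme of glutathione synthesis, had 145, 122, 126 and 114 CPM in DM mice, against 104, 89.1, 69.9 and 58.5 in WT mice (log2 fold change 0.66, SE 0.17, edgeR adjusted p = 0.0289). Bcl11a, a repressor of fetal globin genes that is also expressed in stem and lymphoid progenitors, had 179, 191, 213 and 179 CPM in DM mice, against 194, 234, 260.2 and 273 in WT mice (log2 fold change -0.33, SE 0.0964, edgeR adjusted p = 0.041). Gclm separated the groups without overlap and Bcl11a did not. The Gclm call was lost on leaving out DM 1, 2 or 4 or WT 3 or 4, and the Bcl11a call on leaving out DM 1, 2 or 4, Asxl1Tg 4, Srsf2P95H 1, or WT 2, 3 or 4. The median log2 fold change in DM against WT was -0.08 over the 37 and 0.03 over the 36, against -0.02 over all genes. Of 10 LSK and stem cell markers, 2 were called in DM against WT, against 9.39% of all genes. Slamf1, which marks stem cells, rose in DM (log2 fold change 1.03, SE 0.218, edgeR adjusted p = 0.0121), and Flt3, which marks multipotent progenitors of lymphoid bias, fell (-0.95, SE 0.229, adjusted p = 0.0239). Slamf1 had 7.59, 8.005, 13.1 and 10.3 CPM in DM mice, against 5.85, 4.27, 4.03 and 4.87 in WT mice. Flt3 had 203, 309, 305 and 337 CPM in DM mice, against 319, 564, 705 and 644 in WT mice. The Flt3 call was lost on leaving out DM 1 or 2 or WT 3 or 4. Whether these markers bear on the integrin genes was not tested.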

How the data were processed

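RNA from LSK cells of 16 mice was sequenced as paired 100 bp reads, per the labels' protocols. The values are raw read counts that the authors deposited as 1 table of 55291 gene symbols, not normalized. The genome build mm10 and the tools HTSeq 0.11.2, STAR 2.7.0e, Trimmomatic 0.38 and FastQC are listed in the submitters' processing notes. No source used here gives the annotation release or strand setting. Columns for Asxl1Tg, named by a short form, were matched to titles of the same replicate number. Columns not used numbered 0. Each column is 1 mouse, and totals were 82991487 to 127596225 counts.

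The test was edgeR 4.0.16 under R 4.3.3 (quasi-likelihood, robust, TMM, filterByExpr with a minimum count of 10, all 16 libraries in 1 fit of group means), with Benjamini-Hochberg adjustment over 22749 genes and calls at an adjusted p under 0.05, over 6 comparisons. The SE was taken as the log2 fold change over the square root of F. DESeq2 1.42.0 was an alternative, as were other scalings, filters, left-out libraries and a replicate block, and the fit was tested on simulated data. CPM used TMM-scaled library sizes, and exon lengths came from GENCODE M21 (GRCm38). Promoter words were counted in RefSeq sequences. Floors rest on 3 counts and cover counting error only.

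The members and lists were chosen with earlier results of these data known. Fold changes are given for called members and otherwise for up to 3 members with the smallest p per comparison. Per-library values are given for these and for the member of each role with the highest mean CPM. Tests are given for called genes in the further lists. Zfpm1 in DM against WT, Selp against WT in DM and Asxl1Tg, and the genes named for their mouse pattern, were added after their values were seen. Replicate numbers did not pair the libraries, since correlations of same-numbered libraries ran from -0.293 to 0.295 and 5 of 24 exceeded 0.1. A further listed erythroid gene, Ahsp, was not analysed here.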

Additional observations from a re-analysis of the deposited data

Results flagged for a closer look

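Of 140 sets of 4 mice (35 members in 4 groups), 19 held a mouse far from the other 3 of its group by Dixon's gap rule at 95%. For normally distributed values that rule gives about 1 in 20, or 7, but it was applied here to CPM without a log. The share over all genes was not counted, so 19 against 7 is not a result about these members. In the Asxl1Tg group mouse 3 stood above the rest for Klf1 (19.6 CPM), Car1 (92.9 CPM), Ermap (52.8 CPM), Rhd (11.9 CPM), Sptb (26.6 CPM), Ank1 (34.0 CPM) and Thbs1 (20.9 CPM). In the WT group mouse 2 stood above the rest for Klf1 (25.7 CPM), Epor (11.7 CPM), Car1 (258.8 CPM), Ermap (95.6 CPM) and Aqp1 (133.3 CPM). Mouse 1 of the WT group stood above the rest for Selp (104.5 CPM) and Thbs1 (136.3 CPM). Mouse 2 of the Srsf2P95H group stood above the rest for Slc4a1 (4.00 CPM), Zfpm1 (215.8 CPM), Gfi1b (44.0 CPM) and Thbs1 (207.7 CPM). In the DM group mouse 1 stood above the rest for Treml1 (5.14 CPM). Genes that vary together between mice are not independent, so these 19 sets are fewer separate events than their number. In every set the mouse was the highest of its group.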

How the results depend on the processing

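The fold changes named in the text kept their direction in each alternative that gave them an adjusted p, 24 of them for Selp and the interaction and 25 otherwise. Tubb1 is low in every library, Icam4 and Gp1bb are low and also share exon sequence with other genes, and the erythroid genes vary widely between the 4 mice of a group. Of the calls in DM against WT, Itgb3 was lost in 11 of 25 alternatives and Itga2b in 15 of 25; the cause was not tested.

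Members called in DM against WT numbered 2, and they numbered 1 with library size only, 0 with no filter, 0 with only the compared groups in the fit, 0 without both WT 4 and Srsf2P95H 2, 3 with DESeq2 and 0 to 3 with 1 library left out. In Asxl1Tg against WT 0 members were called, 2 with DESeq2, 1 with the Xist term (Itgb3, added after the data were seen) and 0 to 2 with 1 library left out. In Srsf2P95H against WT 0 were called, 1 with DESeq2 and 0 to 2 with 1 library left out. In DM against Asxl1Tg 0 were called and 2 with DESeq2. For the interaction 0 were called and 0 to 1 with 1 library left out.

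Over all genes, Asxl1Tg against WT gave 428 calls, 1872 with DESeq2, 73 with only the compared groups, 212 without both WT 4 and Srsf2P95H 2, and 121 to 2330 with 1 library left out (fewest without Asxl1Tg 4, most without Asxl1Tg 2). Srsf2P95H against WT gave 115 calls (60 higher, 55 lower), 217 with library size only (40 higher, 177 lower, a shift of the median log2 fold change of -0.11), 202 with the stricter filter (72 higher, 130 lower), 2602 with DESeq2, 2 with only the compared groups, 298 without both, 56 with the Xist term, and 0 to 1638 with 1 library left out (most without WT 1). DM against WT gave 2135, 3914 with DESeq2 and 586 to 2660 with 1 library left out. DM against Asxl1Tg gave 245 (193 higher, 52 lower), 135 with RLE factors, 86 with library size only (32 higher, 54 lower), 101 with no filter, 1168 with DESeq2, 17 with only the compared groups, 655 without both, and 10 to 384 with 1 library left out. DM against Srsf2P95H gave 56, 234 with DESeq2, 26 without both and 20 to 63 with 1 library left out. The interaction gave 0, 1 with no filter, 52 with DESeq2 and 0 to 7 with 1 library left out.

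The replicate numbers did not pair the libraries, and for 3 of 16 libraries the best correlation was with a library of the same number. With the replicate block, members called in DM against WT numbered 0 (adjusted p = 0.0519 for Itgb3 and 0.0608 for Itga2b by edgeR), and calls over all genes were 648 in Asxl1Tg against WT and 952 in Srsf2P95H against WT.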
